A study of Mus musculus with 6 samples.

Results

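Activating transcription factor 4 (ATF4) is a basic leucine zipper factor whose synthesis rises when the initiation factor eIF2 is phosphorylated, and which is also made in response to mTORC1. It pairs with C/EBP proteins on a short composite element and turns on genes that supply amino acids: enzymes that make serine, glycine, asparagine, proline and cysteine, transporters that bring amino acids into the cell, and synthetases that load them onto tRNA. The same factor drives a set of stress and feedback genes, among them *Ddit3* (CHOP), *Trib3* and *Sesn2*. Growing embryonic tissues such as the lung bud use these supply routes to build protein.

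The genes described here are 39 genes of this network, taken by name from a list of textbook members. That list was chosen with earlier results of these data known. Of the 23420 genes in the table, all 39 were present under the listed name. They were divided by role into 6 transcription and feedback factors, 4 stress effectors, 9 enzymes of amino acid synthesis, 7 amino acid transporters, and 13 genes of tRNA charging and export. All 39 had a normalized count of at least 1 in every library, and 38 had at least 10.

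Whole lungs were collected at E11.5 from mouse embryos, and 3 or 4 lungs of a genotype were combined in each pool. Mutants carried the *Shh* Cre/+ allele together with *Rptor* f/f, and controls carried *Shh* Cre/+. *Rptor* encodes Raptor, a core subunit of mTORC1. The Cre, knocked into *Shh*, acts in the lung epithelium and not by design in mesenchyme, endothelium or blood. For littermate controls of a later stage the paper's methods give *Rptor* f/+ together with the Cre. They give no separate genotype for the E11.5 controls, which a supplementary figure labels *Shh* Cre/+. Whether these controls also had 1 floxed allele is therefore not certain. Whole lungs hold all of these cells, so fewer cells of a type cannot be told apart from less RNA per cell. There were 3 control and 3 mutant pools, and the authors' counts, once multiplied back by the size factors, came to between 20197642 and 21276090 reads per library. The p-values rest on the spread between these pools. In limma, the variance of each gene is also drawn toward a trend over all tested genes.

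Values are normalized counts, which are the reads of a gene divided by a size factor of its library. Log2 fold changes (LFC) compare log2(normalized count + 1) in mutant with control pools by limma, so a negative value is lower in the mutant. They are given with a standard error (SE) or a 95% confidence interval (CI), and adjusted p-values are over all 17168 tested genes. Values of single pools are in the order of pools 1, 2 and 3, and of a pair of means the control comes before the mutant. *Rptor* itself stood at 2199 ± 77.0 (SD, n = 3) in control and 2103 ± 69.1 (SD, n = 3) in mutant lungs (LFC -0.06, limma adjusted p = 0.584). The count covers the whole gene and all cells of the lung. Control pool 3 had the lowest control value for 29 of the 39 genes (74.4%), and for 38.9% of all tested genes. Control pool 2 had the highest for 22 of the 39 (56.4%), and for 36.4% of all tested genes.

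The composite element that ATF4 and C/EBP proteins bind has the letters TGATGNAAN, or NTTNCATCA when read on the opposite strand, where N is any base. It was searched on both strands in RefSeq promoter windows of GRCm38.p6, which run from 250 bases before to 50 bases after a gene's start. Windows were found for 32 of the 39 genes (*Mars* under its later name *Mars1*) and not for *Cth*, *Slc7a5*, *Slc1a5*, *Cars*, *Lars*, *Nars* and *Wars*. The letters occurred in the windows of 13 of the 32 genes (40.6%), and in those of 4.5% of all 27025 genes with a window. These 13 comprised 2 of 8 synthesis enzymes, 2 of 5 transporters, 5 of 9 charging and export genes, 2 of 6 factors and 2 of 4 stress effectors. A match describes the letters of the window and is not a measured binding site. The genes were listed as members of the ATF4 network, so their higher share is no independent test of the element.

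The 8 stretches that follow are shown because they cover each of the 5 roles. Each runs 5' to 3' on the gene's strand in GRCm38.p6 coordinates, with the matching letters in capitals.
*Asns* (chr6:7693204-7693252, minus strand): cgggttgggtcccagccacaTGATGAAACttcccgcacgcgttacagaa
*Slc1a4* (chr11:20332700-20332728, minus strand): tgcctcctgcGTTGCATCAtctccagcct
*Slc7a11* (chr3:50443633-50443699, minus strand): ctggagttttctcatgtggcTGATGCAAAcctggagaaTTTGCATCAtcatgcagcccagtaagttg
*Aars* (chr8:111033709-111033757, plus strand): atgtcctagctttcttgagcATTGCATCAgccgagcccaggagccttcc
*Iars* (chr13:49682126-49682154, plus strand): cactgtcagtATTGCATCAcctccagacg
*Nupr1* (chr7:126625553-126625601, minus strand): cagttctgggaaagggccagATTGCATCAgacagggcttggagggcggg
*Vldlr* (chr19:27216799-27216847, plus strand): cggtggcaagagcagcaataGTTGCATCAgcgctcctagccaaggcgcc
*Chac1* (chr2:119351028-119351076, plus strand): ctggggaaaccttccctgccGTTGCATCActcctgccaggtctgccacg

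Positions count the first base of the match from the start. *Asns* carries the element at position -23, and *Slc1a4* carries it across the start, from -5. *Slc7a11* has a pair on opposite strands, at -66 and -48. In *Iars* it lies inside the transcript, from base 7, and in *Aars* a copy lies at -113 and another from base 9 of the transcript. The elements of *Nupr1*, *Chac1* and *Vldlr* lie further upstream, at -111, -194 and -201. The other windows with a match were those of *Gars*, *Tars* and *Pycr1* before the start, and of *Yars* and *Trib3* after it.

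**Figure D1:**
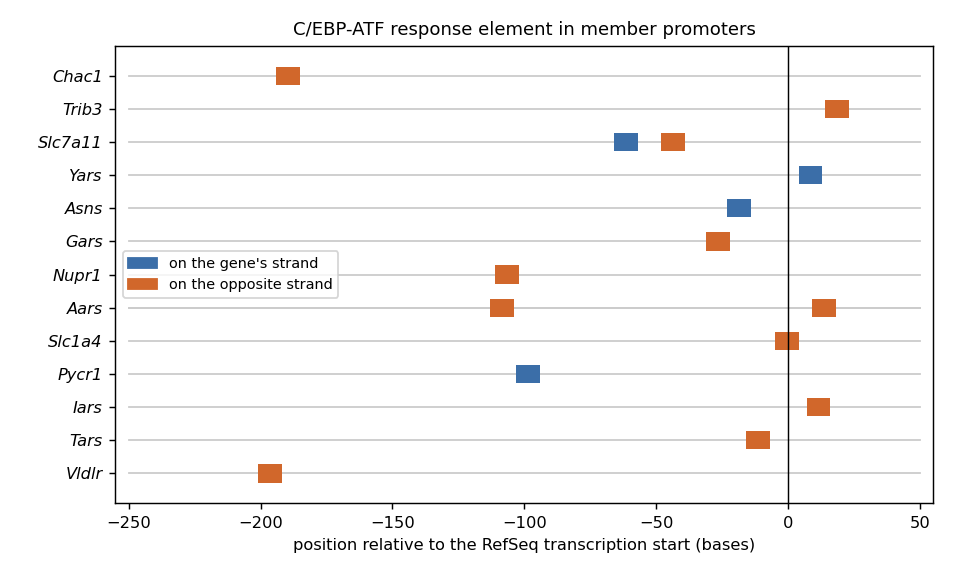
Position of each match to the C/EBP-ATF response element (bars, 9 bases long) relative to the RefSeq transcription start in the 13 genes that had one, with blue for the gene's strand and orange for the opposite strand. Matches lie between position -201 and the first bases of the transcript, and *Slc7a11* and *Aars* have 2 each.

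By limma, 0 of the 39 genes passed an adjusted p of 0.05, where 0.501% of all tested genes did. At an unadjusted p under 0.05, 16 of the 39 (41.0%) were lower in mutant lungs, against 6.89% of all tested genes, and 4 (10.3%) were higher, against 6.67%. Among tested genes with a mean of at least 100 the shares were 7.84% lower and 8.28% higher, and among the 35 members above that level 16 were lower and 3 higher. The median log2 fold change was -0.09 over the 39 genes and -0.0021 over all tested genes. The mutant pools all lay below the control pools for 16 of the 39, against 10.5% of all tested genes, and all above for 1, against 9.77%. Because the 39 genes were chosen with earlier results of these data known, these shares describe them and are not an independent test.

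By role, of the 29 genes of synthesis, transport and tRNA charging, 15 were lower at an unadjusted p under 0.05 and 0 were higher, and 28 had a negative log2 fold change, the exception being *Aldh18a1* at 0.02. No sign among these 29 turned when the libraries were rescaled to their upper quartile or total. Of the 10 factors and stress effectors, 1 was lower and 4 were higher. Of all tested genes, 6.89% were lower and 6.67% higher at that threshold, and 8673 of 17168 had a negative log2 fold change. Higher genes among all 39 numbered 4 here and 1 in limma without its trend term. They numbered 2 in DESeq2, and 2 when any single control pool was left out. In either direction, 13.6% of all tested genes passed that threshold here, 11.7% without the trend term and 8.21% in DESeq2. Without control pools 1, 2 and 3 the shares were 10.8%, 15.9% and 16.9%. The share higher alone was not counted in these other settings, so the counts of higher genes cannot be compared between settings. The log2 fold changes of the 29 had a median of -0.11 and ran from -0.36 to 0.02.

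Epithelial and mesenchymal markers differed between the genotypes. Of the 20 epithelial markers, 19 were lower in mutant pools at an unadjusted p under 0.05, 7 of them at an adjusted p under 0.05. Among all tested genes, 6.89% were lower and 6.67% higher at the unadjusted threshold. The remaining marker, *Krt19*, named here after its values were seen, was higher (LFC 0.44, limma adjusted p = 0.0734). The summed normalized counts of the 20 ran from 17815 to 22144 in control and from 13945 to 15122 in mutant pools. All 10 mesenchymal markers had a positive LFC, 6 of them at an unadjusted and 3 at an adjusted p under 0.05, with sums from 90420 to 96573 in control and from 110560 to 118609 in mutant pools. The median position of the epithelial markers relative to their 6-pool mean was 0.25, 0.34 and 0.07 on the log2 scale for controls 1, 2 and 3, against -0.16, -0.31 and -0.20 for mutants 1, 2 and 3. That of the 29 supply genes took values of 0.08, 0.11 and -0.01 for the controls against -0.06, -0.06 and -0.06 for the mutants. Both were highest in control pool 2 and, among the controls, lowest in control pool 3. The part of epithelial share in the supply genes' difference was not tested. The factors and stress effectors did not have that order, with medians of 0.01, -0.03 and -0.09 for the controls against -0.01, -0.01 and 0.16 for the mutants.

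**Figure D2:**
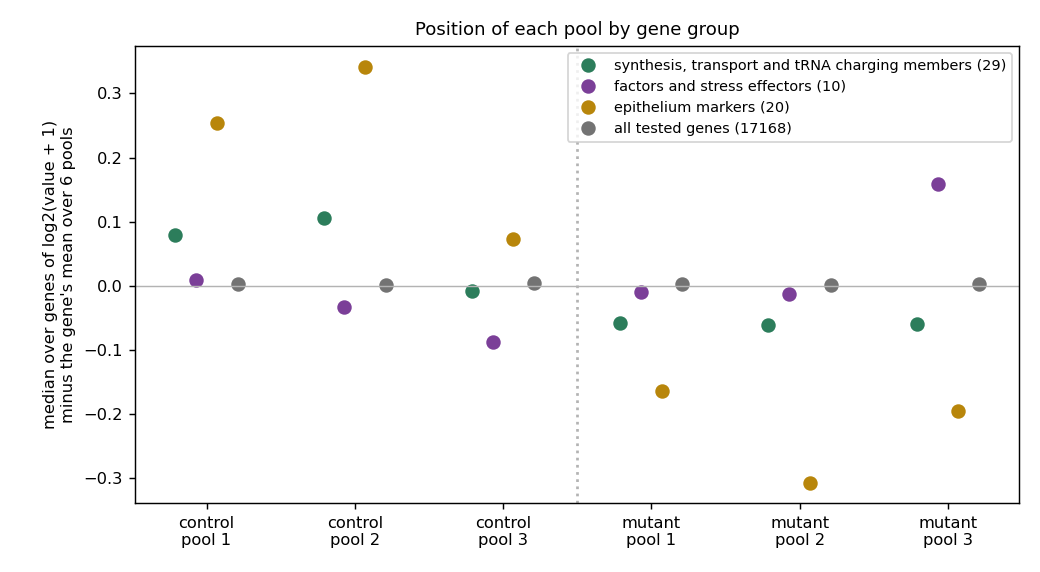
Median over genes of log2(normalized count + 1) minus each gene's mean over the 6 pools, for the 29 supply genes, the 10 factors and stress effectors, 20 epithelial markers and all 17168 tested genes in each pool. The supply genes and the epithelial markers lie above 0 in control pools 1 and 2 and below 0 in the mutant pools, with control pool 3 in between, and all tested genes lie at 0.

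Which genes passed depended on single pools. Without control pool 3, 8 of the 39 passed the adjusted threshold, where 2.7% of all tested genes did. They were *Phgdh* (limma adjusted p = 0.00596), *Slc1a4* (0.0162), *Aars* (0.0215), *Iars* (0.0271), *Psat1* (0.0342), *Slc7a5* (0.0367) and *Cars* (0.0458), all lower, and *Vldlr* (0.013), higher. The number of lower genes at an unadjusted p under 0.05 went from 16 to 22 without control pool 3, where 8.52% of all tested genes were lower, and to 9 without control pool 2, where 7.91% were. With that share over all tested genes in parentheses, it was 10 without mutant pool 1 (5.38%), 10 without mutant pool 2 (5.77%) and 8 in limma without its trend term (5.75%). The LFC of 23 of the 39 genes moved by over 1.5 times when some single pool was left out, 5 of them among the 20 with an unadjusted p under 0.05. With the recovered whole reads of all 6 libraries, 0 of the 39 passed the adjusted threshold in edgeR or in DESeq2. Of all tested genes, 79 of 14670 passed it in edgeR and 278 of 19100 in DESeq2. The members nearest to it in DESeq2 were *Asns* (DESeq2 adjusted p = 0.0542) and *Phgdh* (0.0544). At an unadjusted p under 0.05, edgeR had 16 of the 39 lower, against 7.77% of its tested genes, and DESeq2 had 12 lower, against 4.36%.

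**Figure D3:**
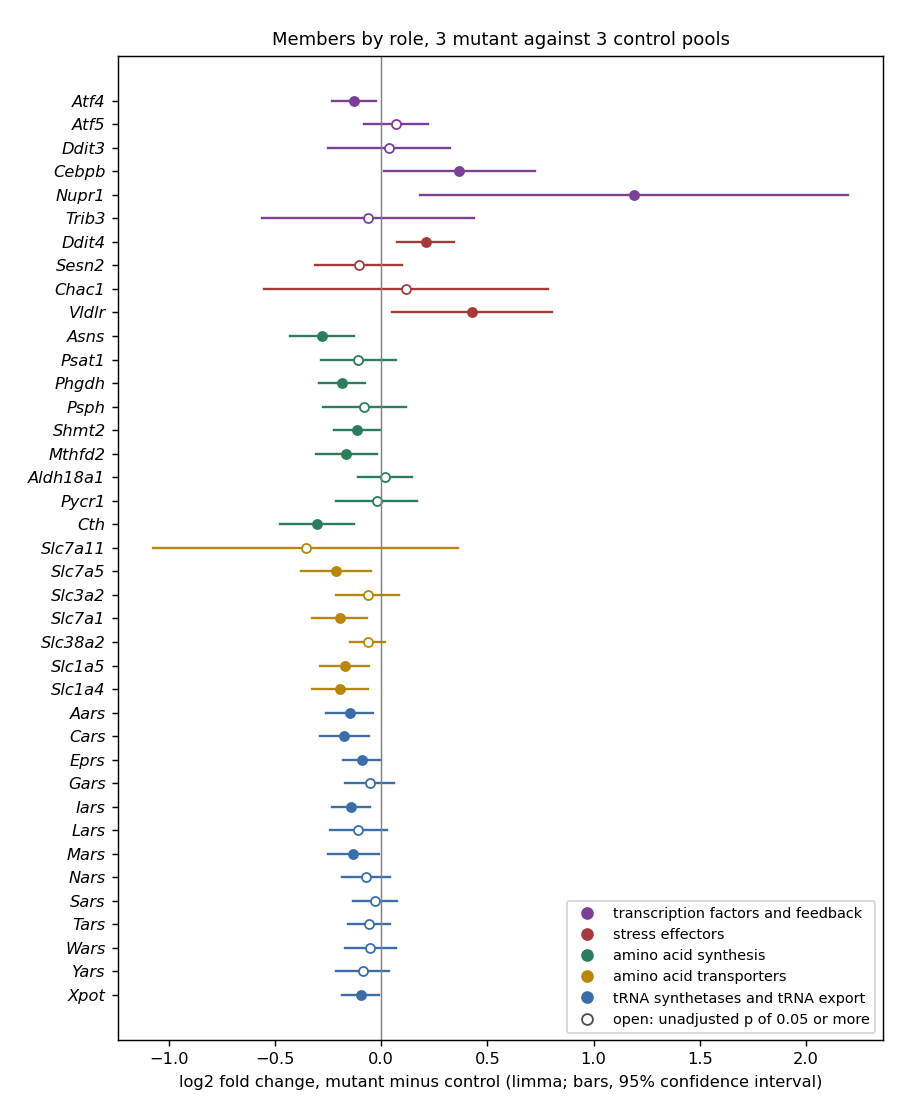
Log2 fold change of each of the 39 genes in mutant against control pools (points) with its 95% confidence interval from limma (bars), coloured by role, with open points for an unadjusted p of 0.05 or more. The synthesis, transport and charging genes lie close to and mostly left of 0, and *Nupr1*, at 1.19, has the widest interval.

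*Atf4* itself, the factor the network is named for, was among the most abundant of the 39 genes per length, at 1588 normalized counts per kilobase of exon in control lungs, second to *Phgdh* at 1797. Its normalized counts were 3755, 3895 and 3583 for the controls against 3302, 3414 and 3553 for the mutants. The highest mutant pool lay just under the lowest control pool. The LFC was -0.13 (SE 0.05, limma adjusted p = 0.249). *Atf5*, a close relative under similar translational control, was at 889 ± 55.2 (SD, n = 3) in control and 934 ± 62.7 (SD, n = 3) in mutant lungs (LFC 0.07), with overlapping groups. Within each pool the log2 ratio of *Atf5* to *Atf4* took the values -2.02, -2.09 and -2.12 for the controls against -1.90, -1.77 and -1.96 for the mutants. The ratio was 0.20 higher in the mutant without overlap, which in an exact two-sided permutation test gave p = 0.1, the smallest that 3 pools against 3 allow, and p = 0.4 after adjustment over 4 ratios.

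*Ddit3*, which encodes the stress factor CHOP, was at 152 ± 9.65 (SD, n = 3) in control and 157 ± 23.2 (SD, n = 3) in mutant lungs. Its LFC of 0.04 had a 95% CI from -0.25 to 0.33. *Trib3*, a pseudokinase that CHOP and ATF4 induce and that feeds back on both, had control values of 58.0, 69.2 and 52.7 and mutant values of 77.7, 44.1 and 54.0 (LFC -0.06, CI from -0.56 to 0.44). For both genes the control and mutant pools were interleaved. The log2 ratio of *Trib3* to *Ddit3* differed by -0.10 between groups (exact permutation test, p = 0.6). *Ddit3* has 2 overlapping gene models in GENCODE M21, and 4.73% of its exon bases are shared with other genes, *Mars* among them.

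*Cebpb*, whose product is a C/EBP partner of ATF4, had normalized counts of 846, 1010 and 613 for the controls against 903, 1204 and 1036 for the mutants. Control pool 3 was the lowest and the groups overlapped (LFC 0.37, SE 0.16, limma adjusted p = 0.351). Without that pool the LFC was 0.17. Of its exon bases, 20.7% are shared with *Tmem189*, and the strand setting of the counting is not given in the sources used here. *Nupr1*, a small stress-induced chromatin protein, was near the lower end of detection, with control values of 11.8, 5.17 and 3.98 and mutant values of 10.2, 14.7 and 25.5. Control pool 1 was above mutant pool 1, and the LFC of 1.19 had a CI from 0.18 to 2.20 (limma adjusted p = 0.282).

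Among the stress effectors, *Ddit4* had the least spread among its controls relative to its level. Its product REDD1 restrains mTORC1 through the TSC complex. Normalized counts were 1065, 1066 and 1060 for the controls against 1270, 1130 and 1295 for the mutants, so that every mutant pool lay above every control pool. No other of the 39 genes had that arrangement (LFC 0.21, SE 0.06, limma adjusted p = 0.164). *Vldlr*, a lipoprotein and reelin receptor, had control values of 181, 177 and 277 against mutant values of 323, 254 and 265. Here control pool 3 lay among the mutant pools, and without it the LFC went from 0.43 to 0.64.

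*Sesn2*, a leucine sensor that holds back mTORC1, had control values of 281, 312 and 263 and mutant values of 275, 253 and 266 (LFC -0.11, CI from -0.31 to 0.10). *Chac1*, which breaks down glutathione and is a sensitive target of ATF4, was at 11.3 ± 0.884 (SD, n = 3) and 12.6 ± 2.83 (SD, n = 3), with a CI from -0.55 to 0.79. In both genes the groups overlapped. *Chac1* was low in all pools, at a control level of 6.93 normalized counts per kilobase.

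**Figure D4:**
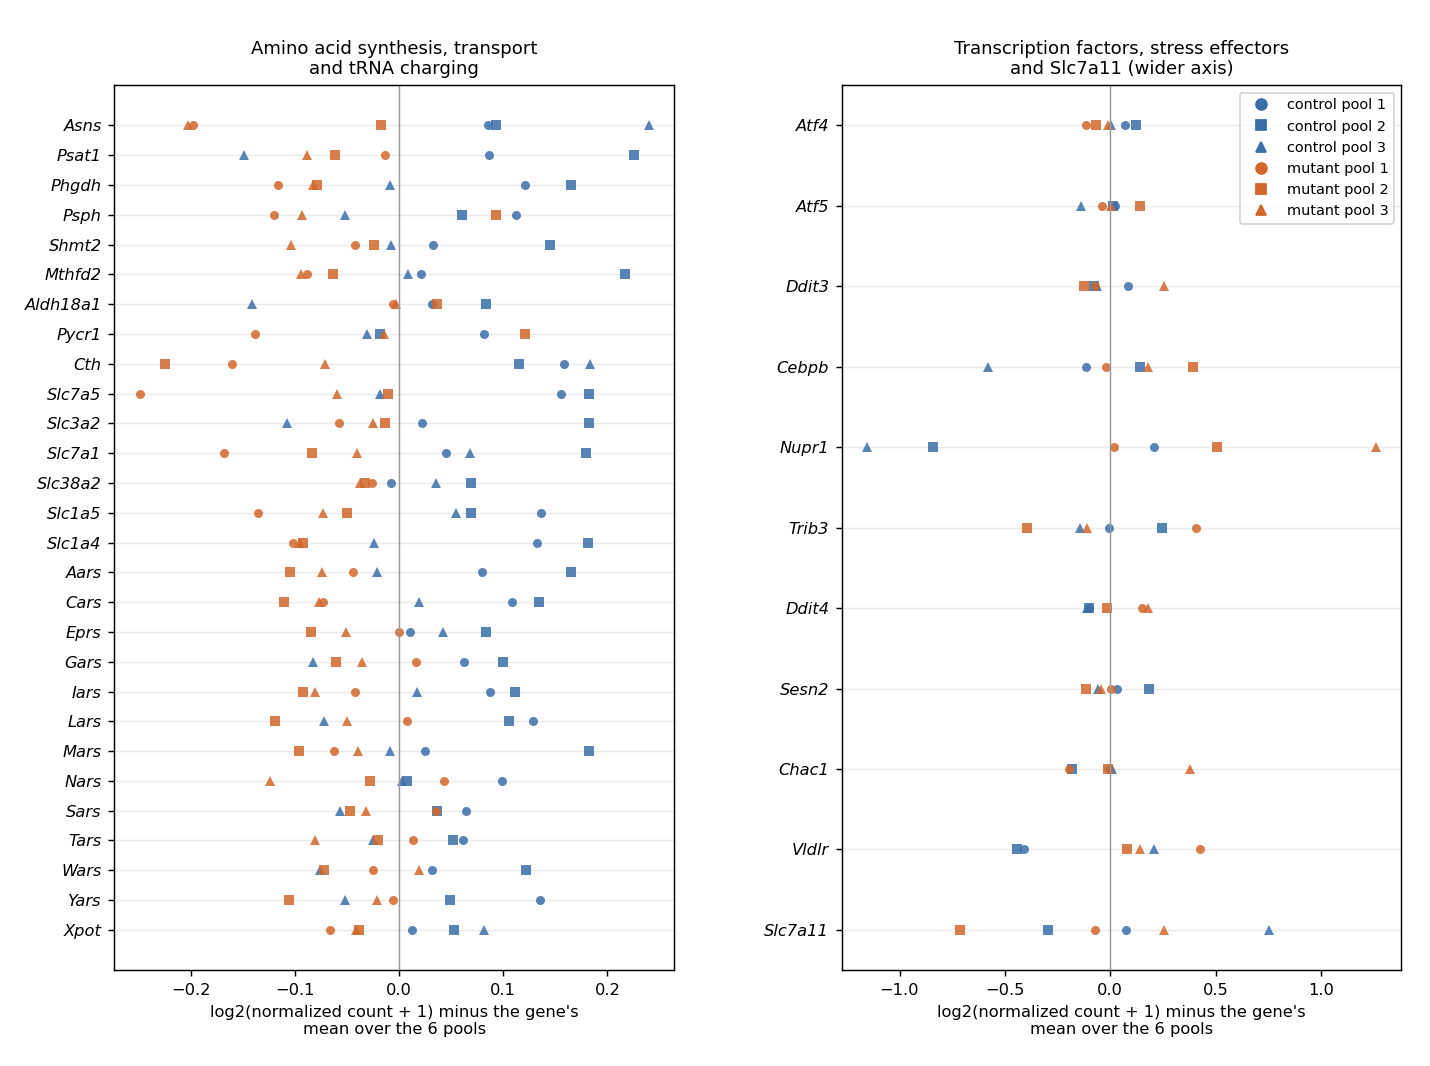
Value of each gene in each of the 6 pools, as log2(normalized count + 1) minus the gene's mean over the pools, for 28 supply genes (left) and for the factors, stress effectors and *Slc7a11* (right, wider axis); blue is control, orange is mutant, and the marker shape is the pool number. Control pool 2 is often the rightmost point and control pool 3 (blue triangles) often the control nearest to the mutant pools, while *Ddit4* shows all mutant pools to the right.

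Among enzymes of amino acid synthesis, 5 of 9 were lower at an unadjusted p under 0.05 and 0 were higher, against 6.89% and 6.67% of all tested genes. *Asns*, asparagine synthetase and a standard readout of ATF4, had the lowest p of the 39 genes. Its normalized counts were 1026, 1032 and 1142 for the controls against 843, 956 and 840 for the mutants. All mutant pools lay below all control pools, and here control pool 3 was the highest control (LFC -0.28, SE 0.07, limma adjusted p = 0.124). *Cth*, which makes cysteine from cystathionine, had 356, 345 and 362 for the controls against 285, 273 and 303 for the mutants. The gap between groups was wider than the spread within either, and the LFC of -0.30 was the most negative of the genes with an unadjusted p under 0.05 (SE 0.08, limma adjusted p = 0.137).

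Serine is made in 3 steps. *Phgdh*, which commits 3-phosphoglycerate to serine, had control values of 4551, 4693 and 4161 against mutant values of 3862, 3963 and 3952 (LFC -0.18, SE 0.05, limma adjusted p = 0.141). *Psat1*, the next enzyme, had control values of 2885, 3177 and 2451 against mutant values of 2692, 2604 and 2556 (LFC -0.11, SE 0.08). Its LFC was -0.21 without control pool 3 and -0.023 without control pool 2. *Psph*, the last, was at 340 ± 19.6 (SD, n = 3) and 322 ± 26.5 (SD, n = 3). For *Phgdh* the groups did not overlap, whereas control pool 3 was below all mutant pools for *Psat1*. For *Psph*, mutant pool 2 lay within the control range. The exons of *Psph* share 10.4% of their bases with *Cct6a*, and *Phgdh* has 1 named pseudogene in the annotation.

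The mitochondrial step from serine to glycine and formate is catalysed by *Shmt2* and *Mthfd2*. *Shmt2* had control values of 3005, 3248 and 2922 against mutant values of 2853, 2889 and 2733 (LFC -0.11, limma adjusted p = 0.350). *Mthfd2* had control values of 878, 1006 and 871 against mutant values of 814, 828 and 811 (LFC -0.16, limma adjusted p = 0.306). In both, every mutant pool lay below every control pool by a narrow margin, and control pool 2 was the highest. Without it the LFC was -0.069 for *Shmt2* and -0.096 for *Mthfd2*. For both proline enzymes the groups overlapped. *Aldh18a1* was at 2550 ± 204 (SD, n = 3) in control and 2576 ± 41.9 (SD, n = 3) in mutant lungs, with a CI of the LFC from -0.11 to 0.15. *Pycr1* was at 380 ± 16.5 (SD, n = 3) and 375 ± 33.8 (SD, n = 3), with a CI from -0.21 to 0.17.

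Among the 7 transporters, 4 were lower at an unadjusted p under 0.05, against 6.89% of all tested genes. All 7 had a negative LFC, against 8673 of all 17168 tested genes. *Slc7a5* encodes LAT1, the leucine carrier, and had normalized counts of 1729, 1760 and 1533 for the controls against 1306, 1540 and 1489 for the mutants. Mutant pool 2 was just above control pool 3, so the groups overlapped (LFC -0.21, SE 0.07, limma adjusted p = 0.235). Without mutant pool 1 the LFC was -0.14. *Slc3a2* encodes 4F2hc, the heavy chain that LAT1 and xCT share, and was at 2229 ± 226 (SD, n = 3) and 2124 ± 33.7 (SD, n = 3), with a CI from -0.21 to 0.08. The log2 ratio of *Slc7a5* to *Slc3a2* within a pool was -0.41 ± 0.07 (SD, n = 3) in control and -0.56 ± 0.10 (SD, n = 3) in mutant lungs, a difference of -0.15 with overlap (exact permutation test, p = 0.2).

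*Slc7a1*, the cationic amino acid carrier CAT1, had 1044, 1146 and 1061 for the controls against 900, 955 and 984 for the mutants (LFC -0.19, SE 0.06, limma adjusted p = 0.185). *Slc1a5*, the glutamine carrier ASCT2, had 1190, 1136 and 1125 for the controls against 986, 1046 and 1030 for the mutants (LFC -0.17, SE 0.05, limma adjusted p = 0.177). *Slc1a4*, the related carrier ASCT1, had 1277, 1320 and 1145 for the controls against 1085, 1092 and 1091 for the mutants (LFC -0.19, SE 0.06, limma adjusted p = 0.193). In each of these 3 genes the groups did not overlap, and the mutant pools of *Slc1a4* had an SD of 3.71.

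*Slc38a2*, the glutamine and alanine carrier SNAT2, had the highest level of the transporters per length, at 1008 normalized counts per kilobase in control lungs. Its normalized counts were 8907 ± 236 (SD, n = 3) in control and 8516 ± 33.9 (SD, n = 3) in mutant lungs (LFC -0.06, CI from -0.15 to 0.02), with every mutant pool below every control pool. *Slc7a11*, the cystine carrier xCT, was the lowest, at 2.94 normalized counts per kilobase, with 36.3, 27.9 and 58.6 for the controls against 32.7, 20.6 and 41.2 for the mutants. Its LFC of -0.36 had a CI from -1.07 to 0.36, and its ratio to *Slc3a2* differed by -0.30 in log2 (p = 0.5 by exact permutation). The LFC was -0.07 without control pool 3, -0.09 without mutant pool 2, -0.59 without control pool 2 and -0.57 without mutant pool 3.

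All 12 tRNA synthetases had a negative LFC, from -0.17 to -0.03 with a median of -0.09. Of them, 5 were lower at an unadjusted p under 0.05, against 6.89% of all tested genes. *Iars*, for isoleucine, had control values of 4530, 4605 and 4315 against mutant values of 4139, 4000 and 4030 (LFC -0.14, SE 0.04, limma adjusted p = 0.159). *Cars*, for cysteine, had control values of 1128, 1148 and 1060 against mutant values of 994, 969 and 991 (LFC -0.17, SE 0.05, limma adjusted p = 0.181). *Aars*, for alanine, had control values of 4359, 4627 and 4065 against mutant values of 4002, 3837 and 3918 (LFC -0.15, SE 0.05, limma adjusted p = 0.225). For all 3 the groups did not overlap, and control pool 3 was the nearest control. Exons of *Aars* share 15.1% of their bases with *Exosc6* and *Gm24103*.

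*Mars*, for methionine, and *Eprs*, which loads both glutamate and proline, also had an unadjusted p under 0.05 and no overlap. The LFC was -0.13 for *Mars* (limma adjusted p = 0.319) and -0.09 for *Eprs* (limma adjusted p = 0.359). Without control pool 2 that of *Mars* was -0.074. *Xpot*, which carries tRNA out of the nucleus, had control values of 3373, 3470 and 3539 against mutant values of 3194, 3257 and 3251 (LFC -0.10, limma adjusted p = 0.306). Its groups did not overlap, and control pool 3 was its highest control. The other 7 synthetases, *Gars*, *Lars*, *Nars*, *Sars*, *Tars*, *Wars* and *Yars*, had LFCs between -0.11 (*Lars*) and -0.03 (*Sars*), and in each of them the groups overlapped. Per length, control levels ran from 169 normalized counts per kilobase for *Cars* to 1325 for *Gars*.

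The 13 genes with a match in their window had a median LFC of -0.06, with 4 lower and 2 higher at an unadjusted p under 0.05. The 19 without a match had a median of -0.09, with 8 lower and 2 higher, and the 7 genes with no window had a median of -0.17, with 4 lower and 0 higher. At that threshold 6.89% of all tested genes were lower and 6.67% higher, and their median LFC was -0.0021. The counts and medians of these sets were not compared by a test. *Asns* and *Nupr1*, with opposite signs, both carried a match.

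The other genes of the pathway were counted in wider lists. Of 120 tested genes in 8 lists, 0 had an adjusted p under 0.05, where 0.501% of all tested genes did. At an unadjusted p under 0.05 there were 10 lower (8.33%) and 7 higher (5.83%). These shares lie near the 6.89% lower and 6.67% higher among all tested genes, which also apply to the counts that follow. Of 14 genes of eIF2 kinases, phosphatases and exchange factors, 0 had an unadjusted limma p under 0.05 in either direction, the lowest p being that of *Eif2b2* (LFC -0.10, limma adjusted p = 0.440). Of 11 other cytosolic synthetases and scaffold proteins, 0 had one either, with *Farsa* at -0.11, *Rars* at -0.08 and *Dars* at 0.07. Among 17 mitochondrial synthetases, *Vars2* was higher (0.19, limma adjusted p = 0.283) and 0 were lower at that threshold.

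Among 20 other targets of ATF4, 1 was lower and 1 was higher at an unadjusted p under 0.05 (5% each), against 6.89% and 6.67% of all tested genes. *Pck2*, the mitochondrial PEP carboxykinase, had control values of 1593, 1521 and 1399 against mutant values of 1678, 1708 and 1740 (LFC 0.19, limma adjusted p = 0.176). *Adm2*, a secreted peptide, was at 3.93, 5.17 and 4.97 normalized counts in control and 1.02, 2.94 and 0.982 in mutant pools (LFC -1.17, limma adjusted p = 0.321). Among 16 bZIP factors related to ATF4, both *Cebpa* (0.36, limma adjusted p = 0.218) and *Cebpd* (0.43, limma adjusted p = 0.243) were higher without overlap, as *Cebpb* was with overlap, and *Jun* was lower (-0.15, limma adjusted p = 0.272).

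The list of 21 tested amino acid and one-carbon enzymes had 5 lower and 1 higher at an unadjusted p under 0.05. Those are 23.8% and 4.76%, against 6.89% and 6.67% of all tested genes. *Amt*, the aminomethyltransferase of the glycine cleavage system, had control values of 441, 434 and 450 against mutant values of 351, 331 and 338, an LFC of -0.38 (SE 0.07, limma adjusted p = 0.0512). *Gldc*, the decarboxylase of the same system, was at 196 ± 21.5 (SD, n = 3) and 145 ± 21.1 (SD, n = 3) (LFC -0.43, limma adjusted p = 0.193). *Mthfd1*, the cytosolic folate enzyme, had an LFC of -0.20 (limma adjusted p = 0.124). In all 3 the groups did not overlap. Among 24 other transporters 2 were lower and 1 higher, led by *Slc7a6*, a partner of 4F2hc, at -0.17 (limma adjusted p = 0.118).

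Among 7 paralogs of the 39 genes, *Sesn1* was at 847 ± 57.0 (SD, n = 3) in control and 951 ± 43.7 (SD, n = 3) in mutant lungs (LFC 0.17, limma adjusted p = 0.290). *Lrp8*, the reelin receptor related to *Vldlr*, was at 261 ± 17.4 (SD, n = 3) and 216 ± 13.6 (SD, n = 3) (LFC -0.27, limma adjusted p = 0.243). *Sesn3*, next by p, had an LFC of -0.10 (limma adjusted p = 0.437).

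**Figure D5:**
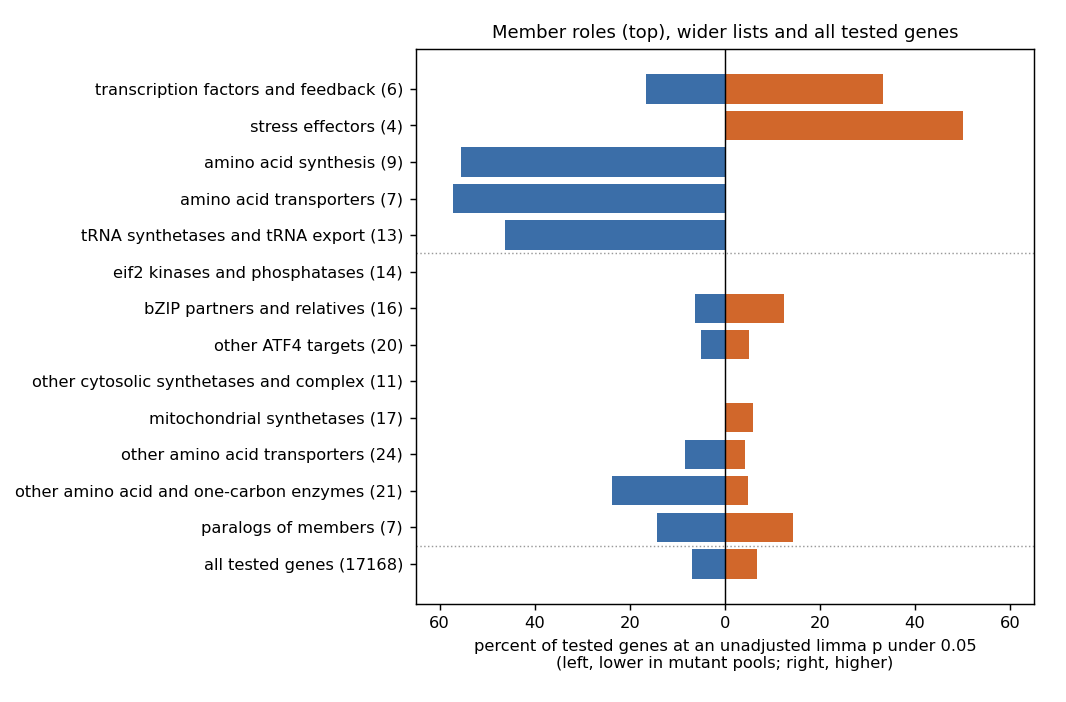
Percent of tested genes in each role (top), in each wider list (middle) and among all tested genes (bottom) with an unadjusted limma p under 0.05, drawn to the left when lower and to the right when higher in mutant pools, with the number of tested genes in parentheses. The 3 supply roles reach 46.2% to 57.1% to the left with nothing to the right, against 6.89% and 6.67% for all tested genes.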

How the data were processed

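Bulk RNA-Seq of whole lungs was taken for 3 control and 3 mutant pools, grouped by the samples' titles. The labels name Trim Galore, HISAT2, featureCounts and DESeq2 with mm10, and their versions and settings are not given in the sources used here. The authors deposited 1 table of normalized counts, a signal made by dividing reads by a size factor per library, with their mean. The deposited log2 fold changes, standard errors, test statistic (a score) and p-values are the authors' own comparison and were not used. All values above 0 were whole multiples of a step per library (within 0.01 of a read), so whole reads were recovered for all 6 libraries, control pool 3 included, whose step of 0.994 lies close to 1.

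limma 3.58.1 in R 4.3.3 (lmFit, eBayes with trend) was run on log2(normalized count + 1) for genes whose value reached 1 in 3 libraries or more. P-values were adjusted by Benjamini-Hochberg over all tested genes, with a threshold of 0.05. edgeR 4.0.16 (quasi-likelihood, TMM) and DESeq2 1.42.0 were run on the recovered reads as alternatives, beside other filters, scalings, pseudocounts, a replicate block and each pool left out. The fits were run on simulated counts with 200 changed genes. limma called 81 of 106 genes changed by 0.5 log2 units and 88 of 94 changed by 1, with 14 false among 183 calls. edgeR and DESeq2 each had 18 false among 187 calls. Changes smaller than 0.5 were not simulated, so the power for such changes was not tested. Changed genes were drawn only from genes above a minimum mean level. *Nupr1*, *Chac1* and *Slc7a11* lay under it, so the power at such low levels was not tested either. Ratios within a pool were compared by two-sided exact permutation. Exon lengths, which are unions over transcripts, come from GENCODE M21 (GRCm38), and levels per kilobase divide by them. Intervals rest on the spread between pools, with each gene's variance drawn toward limma's trend over all tested genes, and cover no other uncertainty. The 39 genes and all lists were chosen with earlier results of these data known. All 39 were to be named, with up to 3 genes of the lowest p from each wider list. Marker lists covered epithelium, mesenchyme, endothelium, erythroid cells, macrophages, heart muscle, neural cells, mesothelium, liver and handling response.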

Additional observations from a re-analysis of the deposited data

How the results depend on the processing

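Over 15 alternatives, 566 of the 582 recomputed log2 fold changes of single genes that had an adjusted p kept their direction and their side of the adjusted threshold, 8 passed it (all without control pool 3, listed in the report) and 8 turned sign. All turns came from leaving out 1 pool, where the log2 fold change ran from -0.087 to 0.043 for *Pycr1* (positive without control pool 1, at 0.014, and without mutant pool 1), from -0.28 to 0.12 for *Trib3* (positive without control pool 2, at 0.044, and without mutant pool 2), from -0.048 (without control pool 3) to 0.064 for *Aldh18a1*, from -0.079 (without mutant pool 3) to 0.11 for *Ddit3*, and from -0.043 (without mutant pool 3) to 0.24 for *Chac1*. That of *Slc3a2* was 0.011 without control pool 2. Leaving out 1 pool at a time, between 0 and 8 genes passed the adjusted threshold, and 11 (without control pool 2) to 24 (without control pool 3) had an unadjusted p under 0.05, where 15.9% and 16.9% of all tested genes did (13.6% with all pools). Of the 39 genes, 9 to 22 were lower and 1 to 3 higher, and the median log2 fold change of the 39 genes ran from -0.13 to -0.07. Without mutant pools 1, 2 and 3, the lower genes numbered 10, 10 and 11, where 10.4%, 10.9% and 9.17% of all tested genes passed in either direction. limma without trend gave 9 genes at an unadjusted p under 0.05, 8 lower and 1 higher, where 11.7% of all tested genes passed. At the adjusted threshold it gave 8 of all tested genes. A minimum of 10 in every library, which leaves out *Nupr1*, gave 2 higher genes, as did DESeq2, which gave no adjusted p for *Nupr1* and *Chac1*. In either direction, 15.2% of all tested genes passed with that minimum and 8.21% in DESeq2. The cause of these shifts was not tested.

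Between control and mutant pools of the same number, deviations from the group mean correlated at -0.03, 0.20 and 0.08 for numbers 1, 2 and 3. That of number 2 was the highest of all control and mutant pairs. Control pool 1 correlated best with mutant pool 3 (0.06), and control pool 3 with mutant pool 1 (0.13). Correlations this weak cannot decide whether the replicate numbers pair the pools. With the replicate block, 19 of the 39 genes had an unadjusted p under 0.05, where 13.5% of all tested genes did. At this depth, genes such as *Nupr1*, *Chac1* and *Slc7a11* rest on few reads, and their intervals span over 1 log2 unit.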

Other observations

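The other marker lists give the makeup of the pools. Endothelial markers summed to 12206 to 13680 normalized counts in control and 13673 to 14477 in mutant pools. Of them, 4 of 9 were higher at an unadjusted limma p under 0.05, against 6.67% of all tested genes. Erythroid markers had sums from 98670 to 126983 in control and from 97687 to 121934 in mutant pools, with *Hba-a1* at 0 in every library. Macrophage markers ran from 1684 to 2618 and from 2334 to 2377, and mesothelial markers from 2951 to 3408 and from 3580 to 3811. Heart muscle markers summed to 1006 to 1111 in control and 734 to 841 in mutant pools. Neural markers ran from 1633 to 1761 and from 1330 to 1695, liver markers from 270 to 400 and from 236 to 281, and early response and heat shock genes from 3873 to 4064 and from 3600 to 3884. At that threshold 2 of 4 mesothelial markers were higher, 1 of them at an adjusted p under 0.05. Lower were 2 of 8 heart muscle, 2 of 5 neural, 1 of 5 liver and 1 of 7 early response and heat shock genes, against 6.89% of all tested genes. Erythroid and macrophage markers had 0 in either direction. The part of these cells in the differences reported above was not tested.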
